A study of Homo sapiens with 4 samples.

Results

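INSIG2 and 30 other genes of sterol and lipid synthesis were examined in MDA-MB-231 cells, a human breast cancer cell line, after transfection with miR-217 mimic. The 31 genes were taken by name from the 32955 genes of the deposited table, and all 31 were found there. INSIG2 was selected on its lower RPKM with miR-217 mimic, and its values in that comparison are therefore described without a test. The other 30 were listed for their function in the SREBP pathway, in cholesterol synthesis or in fatty acid synthesis. RPKM scales the reads of a gene to its exon length and to the library's total, so that levels can be compared between genes. A gene was tested where its mean RPKM was at least 1, which held for 13871 genes and for 30 of the 31. TM7SF2, which encodes a reductase of the sterol pathway, was below this limit with 0.261 to 0.669 RPKM.

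The study asked which genes change when miR-217 is raised in these cells. RNA-seq was performed on 2 libraries after mimic NC, the negative control of the transfection, and on 2 libraries after miR-217 mimic, which supplies the cells with additional miR-217. All cells were the same line, grown in DMEM with 10% fetal bovine serum, and total RNA was isolated with TRIzol. Each group holds a library numbered 1 and a library numbered 2, and the labels do not say what the number marks or whether the libraries came from separate cultures, so that p-values measure only the spread between these libraries. The reads on genes summed to between 32635814 (miR-217 mimic, number 2) and 57933183 (mimic NC, number 1). The mesenchymal markers VIM and CD44 were at 27.9 to 36.9 and 13.5 to 26.0 RPKM. The estrogen receptor gene ESR1 was at 0.0294 to 0.0756 RPKM, the adhesion gene CDH1 at 0.169 to 0.433 RPKM, and PGR was not listed in the table. Of the other luminal or hormone receptor markers, GATA3 was at 0.0637 to 0.104 RPKM, whereas FOXA1 and ERBB2 were at 1.3004 to 1.7036 and 2.27 to 3.23 RPKM. EPCAM, an epithelial marker, was at 3.90 to 7.41 RPKM. The mimic itself is not measured by mRNA sequencing.

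INSIG1 and INSIG2 are membrane proteins of the endoplasmic reticulum. When sterols are plentiful they hold back SCAP, which otherwise escorts the SREBP transcription factors to the Golgi, where proteases release their active part. Active SREBP then raises transcription of nearly the whole set of enzymes that turn acetyl-CoA into cholesterol and fatty acids, and of INSIG1 itself. SREBF2 is known mainly for sterol genes and SREBF1 mainly for fatty acid genes.

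The sequences printed here show the seed of miR-217 and its matches in INSIG2 and FADS1. The mature strand, hsa-miR-217-5p, is encoded on the minus strand at chr2:55983020-55983042 (RefSeq, GRCh38.p14), and the capitals mark the seed, bases 2 to 8. The match to the seed is the 7-base run ATGCAGT, and it was searched on the sense strand of the longest 3'UTR annotated for each gene in GENCODE 29 (GRCh38). In the windows of 30 bases the capitals mark this match.
hsa-miR-217-5p: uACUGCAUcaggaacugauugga
INSIG2 site 97 bases after the stop codon: aaaattgccaggATGCAGTtttccccttga
INSIG2 site 1030 bases after the stop codon: ttttcatcttacATGCAGTcttgggggtgg
FADS1 site 2058 bases after the stop codon: gaagcaagctggATGCAGTggctcatgcct

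INSIG2 was the member with most seed matches. Its 3'UTR of 1706 bases held 2, both in exon 6 of 6 on the plus strand, at chr2:118108419-118108425 and chr2:118109352-118109358. The only other member with this match was FADS1, a fatty acid desaturase, with 1 match in exon 12 of 12 on the minus strand at chr11:61800347-61800353. Thus 2 of 31 members (6.45%) held the seed match, compared with 14.5% of the 9909 genes that were tested and have a 3'UTR in the annotation. None of the members held the 8-base match ATGCAGTA, which 3.67% of those genes held. The weaker run TGCAGTA, which pairs with bases 2 to 7 and is followed by A, was found once each in MSMO1 and ACLY, 2 of 31 members (6.45%), compared with 13.2% of those genes. SCD and ELOVL6, whose 3'UTRs of 3901 and 5492 bases were the longest among the members, held neither ATGCAGT nor TGCAGTA. A match describes the letters of the 3'UTR and is not evidence of binding.

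INSIG2 lies on the plus strand of chromosome 2 from 118088452 to 118110997 (GRCh38), and its exons overlap those of no other listed gene. INSIG2 was at 5.57 and 6.03 RPKM in the mimic NC libraries numbered 1 and 2, and 3.36 and 3.76 in the miR-217 mimic libraries. Both miR-217 mimic libraries were thus below both mimic NC libraries, with means of 5.80 ± 0.326 (SD, n = 2) and 3.56 ± 0.282 (SD, n = 2). The reads behind these values were 1275 and 1129, and 709 and 485. The change was -39.6% within number 1 and -37.6% within number 2. In bulk RNA a lower level per cell and fewer cells that express the gene cannot be told apart.

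INSIG1, the sister protein of INSIG2, showed another pattern. In the libraries numbered 1 and 2 its RPKM was 7.71 and 4.65 for mimic NC and 7.50 and 3.79 for miR-217 mimic. The groups overlapped, and the level followed the library number. Between the groups it differed by -0.14 (standard error 0.35, adjusted limma p-value of 1.00, adjusted over the 13871 genes). Log2 fold changes are differences of log2(RPKM + 1), a scale that understates the change of low genes. Relative to INSIG1, INSIG2 stood at 0.723 and 1.30 in the mimic NC libraries and at 0.449 and 0.9915 in the miR-217 mimic libraries. Within each number this ratio of RPKM was lower with miR-217 mimic, but between the groups it overlapped. The lower ratio follows from the selection of INSIG2 on its fall, since INSIG1 changed by only -2.7% and -18.4% within numbers 1 and 2. It is not a further result. The summed RPKM of INSIG1 and INSIG2 was 13.3 and 10.7 for mimic NC and 10.9 and 7.56 for miR-217 mimic. This sum also holds the selected fall of INSIG2.

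Of the remaining control genes, SREBF1 was at 5.84 and 5.19 RPKM with mimic NC and at 5.16 and 4.61 with miR-217 mimic, so the groups did not overlap. Its log2 fold change was -0.15 (standard error 0.13). SREBF2 was at 6.77 and 5.56 RPKM with mimic NC and at 6.26 and 5.07 with miR-217 mimic, with overlap between the groups and a difference of -0.10 (standard error 0.16). SCAP was at 1.78 and 1.33 RPKM with mimic NC and at 1.46 and 1.40 with miR-217 mimic, and its difference had opposite signs in the numbers, at -0.18 and 0.05.

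**Figure D1:**
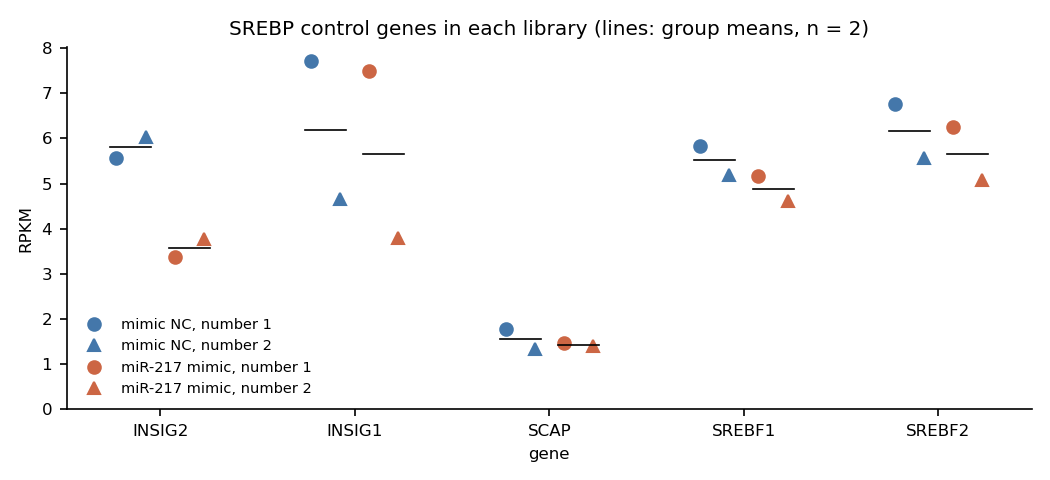
RPKM (vertical axis, from 0) of INSIG2, INSIG1, SCAP, SREBF1 and SREBF2 in the 4 libraries. Colours are the groups, circles and triangles the numbers 1 and 2, and lines the group means of n = 2. INSIG2 separates by group, with 5.57 and 6.03 against 3.36 and 3.76, whereas INSIG1 separates by number.

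The question that follows is whether the pathway that INSIG2 restrains moved when INSIG2 was lower. Genes higher with miR-217 mimic were not found among the 29 other members tested. None had an unadjusted limma p under 0.05 in that direction, which 0.483% of all tested genes had. None had both miR-217 mimic libraries above both mimic NC libraries, which 9.72% of all tested genes had. For 26 of the 29 this pattern could not occur, because both libraries numbered 2 were below both libraries numbered 1. The absence of the pattern in these 26 is therefore not a result about the mimic. Fitted log2 fold changes were below 0 for 26 of the 29, compared with 55.6% of all tested genes, and the highest was 0.01 for ACAT2. Their median was -0.098, compared with -0.017 over all tested genes. The difference was below 0 within both numbers for 19 of the 29 (65.5%), compared with 34.1% of all tested genes, and above 0 within both for 2 (6.9%), ACLY and FADS2, compared with 25.4%. These 2 genes differed by at most 0.0137 (ACLY) and 0.0081 (FADS2) on the log2 scale. None of these genes was called by limma. The adjusted p was 1.00 for all 29, and 0 of all 13871 genes had one under 0.05, while 165 genes (1.19%) had an unadjusted p under 0.05. Standard errors of the 29 ranged from 0.11 for ACLY to 0.42 for HSD17B7.

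Over the 29 members other than INSIG2, the median was -0.062 within number 1 and -0.13 within number 2. The median of the fit, -0.098, depended on which libraries were compared. It was 0.050 without mimic NC replicate 1 and 0.087 without miR-217 mimic replicate 2, and -0.273 without mimic NC replicate 2 and -0.272 without miR-217 mimic replicate 1. The count below 0, 26 of the 29, was 9 without mimic NC replicate 1, 6 without miR-217 mimic replicate 2, 29 without mimic NC replicate 2 and 28 without miR-217 mimic replicate 1. In each of these fits the numbers are unequal between the groups.

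SCD, the desaturase that makes monounsaturated fatty acids, was the only one of the 29 with an unadjusted limma p under 0.05 in the fit without a replicate term. Its RPKM was 64.2 and 66.2 in the mimic NC libraries and 54.0 and 45.7 in the miR-217 mimic libraries. The groups did not overlap, and the change was -16.0% within number 1 and -31.0% within number 2. It differed by -0.39 (standard error 0.14, unadjusted limma p = 0.0426, adjusted p = 1.00), and the smallest p that exact permutation allows with 2 libraries a group is 0.333. The unadjusted limma p (no exact test can reach it here) was 0.0505 (difference -0.36) after median centring of the libraries, 0.154 and 0.194 (-0.41 and -0.36) without mimic NC replicates 1 and 2, 0.0410 (-0.50) without miR-217 mimic replicate 1 and 0.215 (-0.27) without miR-217 mimic replicate 2. With the replicate block the unadjusted limma p of SCD (again beyond any exact test here) was 0.0132, and 0.00126 with the block on voom reads, and that of MSMO1 was 0.0439 with the block. With the block 4.84% of all tested genes were lower with such a p, so that 2 of the 29 is close to the background. In the fit without the block, SCD as 1 gene made up 3.45% of the 29, compared with 0.707% of all tested genes that were lower with an unadjusted p under 0.05.

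FADS1 was the third of the members other than INSIG2, beside SREBF1 and SCD, whose miR-217 mimic libraries were both below both mimic NC libraries, a pattern held by 13.5% of all tested genes. Its RPKM was 55.8 and 62.1 for mimic NC and 54.2 and 52.5 for miR-217 mimic, a difference of -0.14 (standard error 0.13). MSMO1, a methyl sterol oxidase, followed SCD in size at -0.24 (standard error 0.17). Its RPKM was 2.94 and 2.32 for mimic NC and 2.39 and 1.78 for miR-217 mimic, so that the groups overlapped. Among the other fatty acid genes, ACLY, which makes cytosolic acetyl-CoA, was at 19.3 to 19.6 RPKM in the 4 libraries, and FADS2 was at 2.67 to 2.91 RPKM. ELOVL6, an elongase, had a log2 fold change of -0.05, ACACA, which makes malonyl-CoA, one of -0.11, and FASN, the fatty acid synthase, one of -0.14.

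No sterol gene had separated groups, but separation could not occur in these genes. In each of them both libraries numbered 2 were below both libraries numbered 1, so that the groups had to overlap. Of all tested genes 13.5% were separated downward and 9.72% upward, but these shares are no measure for the counts that follow. Of the 7 genes from ACAT2 to FDPS, which build the isoprenoid precursors, 0 had non-overlapping groups, and their fold changes ranged from -0.145 for HMGCS1 to 0.01 for ACAT2. Of the 10 tested genes from FDFT1 to DHCR7, which make and modify the sterol ring, 0 had non-overlapping groups, and the fold changes ranged from -0.24 for MSMO1 to -0.0029 for CYP51A1. STARD4, a carrier of cholesterol between membranes, had a log2 fold change of -0.17 (standard error 0.21).

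**Figure D2:**
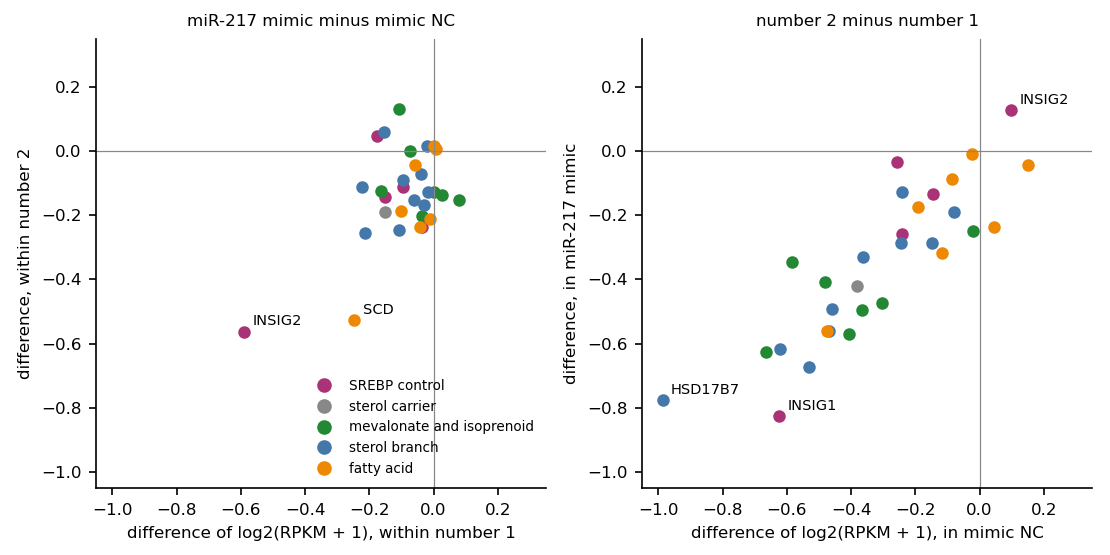
Each point is 1 of the 30 tested members, coloured by role, and the axes are differences of log2(RPKM + 1). On the left, miR-217 mimic minus mimic NC within number 2 is plotted against that within number 1, where INSIG2 (-0.59 and -0.56) and SCD (-0.25 and -0.53) lie apart from the other genes. On the right, number 2 minus number 1 in miR-217 mimic is plotted against that in mimic NC, where most genes lie below 0 on both axes, with HSD17B7 at -0.99 in mimic NC and INSIG1 at -0.83 in miR-217 mimic.

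The larger differences of the sterol genes lay between the library numbers. The rule for the genes names only the comparison with the mimic, but the genes were listed with earlier results of these data known. In a limma fit with group and number as terms, 11 of the 30 tested members (36.7%) fell in number 2 relative to number 1 at an adjusted p under 0.05, compared with 4.69% of all tested genes. None of the members rose, compared with 3.69% of all tested genes. Both libraries numbered 2 were below both libraries numbered 1 for 26 of the 30, compared with 35.5% of all tested genes, and 27 were lower within both groups, compared with 42.6%. Neither count holds INSIG2, SCD or FADS1, and SREBF1 is only in the count within both groups. The median log2 difference was -0.31, compared with -0.035 over all tested genes, and it was -0.28 within mimic NC and -0.32 within miR-217 mimic, which share no library. All 11 genes were also called when reads recovered from the RPKM values were tested with limma-voom, a fit chosen after seeing the data, in which 16 of the 30 members and 13.5% of all tested genes were called lower. MVD was not called at a pseudocount of 0.1. The fit leaves 1 residual degree of freedom, so its calls lean on the spread pooled over genes. With no filter on low levels 0 members were called, and 3 of all 32955 genes.

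HSD17B7, a ketoreductase of the sterol ring, had the largest difference among the members. Its RPKM was 7.23 and 6.399 in the libraries numbered 1 of mimic NC and miR-217 mimic, and 3.15 and 3.32 in those numbered 2, a log2 difference of -0.88 (standard error 0.090, adjusted p = 0.0269 from limma). INSIG1 was at 7.60 ± 0.150 (SD, n = 2) in number 1 and 4.22 ± 0.605 (SD, n = 2) in number 2. Its log2 difference was -0.72 (standard error 0.088, adjusted p = 0.0323 from limma). INSIG2 did not follow it. The log2 difference of INSIG2 between the numbers was 0.11 (standard error 0.075, adjusted p = 0.354 from limma), and it was above 0 in both groups, at 0.10 in mimic NC and 0.13 in miR-217 mimic.

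Of the 7 genes of the isoprenoid precursors, all 7 had both libraries numbered 2 below both numbered 1, compared with 35.5% of all tested genes, and 4 (57.1%) passed the adjusted threshold, compared with 4.69%. HMGCS1, which makes HMG-CoA, was at 52.8 and 47.0 RPKM in number 1 (mimic NC, then miR-217 mimic) and at 32.9 and 30.1 RPKM in number 2. Its log2 difference was -0.65 (adjusted p = 0.0268 from limma). The others that passed were MVD (-0.49, adjusted p = 0.0498 from limma) and IDI1 (-0.44, adjusted p = 0.0421 from limma), which make and isomerize isopentenyl diphosphate, and FDPS (-0.43, adjusted p = 0.0461 from limma), which makes farnesyl diphosphate. ACAT2 and MVK had differences of -0.46 and -0.39 with adjusted limma p-values of 0.0534 and 0.0693. PMVK, a kinase of the same chain, stood nearest to 0 at -0.13, and its RPKM was 39.8 and 42.1 in number 1 and 39.3 and 35.2 in number 2.

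Among the 10 tested genes of the sterol ring, all 10 had both libraries numbered 2 below both numbered 1, compared with 35.5% of all tested genes, and 5 of the 10 passed, compared with 4.69%. FDFT1, the squalene synthase, was at 24.8 and 23.1 RPKM in number 1 and at 15.8 and 14.7 RPKM in number 2, a log2 difference of -0.62 (adjusted p = 0.0275 from limma). NSDHL, a sterol dehydrogenase, was at 14.98 and 13.8 RPKM in number 1 and at 10.0 and 8.31 RPKM in number 2, a log2 difference of -0.60 (adjusted p = 0.0338 from limma). These levels did not overlap between the numbers. SQLE, the squalene epoxidase, and EBP, a sterol isomerase, differed by -0.52 and -0.48 (adjusted limma p-values of 0.0358 and 0.0361). CYP51A1, a demethylase, had a difference of -0.35 with an adjusted limma p of 0.0536. MSMO1, DHCR7, LSS and SC5D had smaller differences of -0.27, -0.22, -0.18 and -0.14, with adjusted limma p-values between 0.115 and 0.301.

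The fatty acid genes differed less, with FASN as the exception. Of the 7, 5 (ACLY, ACACA, FASN, FADS2 and ELOVL6) had both libraries numbered 2 below both numbered 1, compared with 35.5% of all tested genes. FASN alone (14.3% of the 7) passed the adjusted threshold, compared with 4.69% of all tested genes. FASN was at 14.4 and 13.3 RPKM in number 1 and at 10.0 and 8.70 RPKM in number 2, a log2 difference of -0.52 (adjusted p = 0.0359 from limma). The median of the 7 fatty acid genes was -0.096, compared with -0.44 for the 7 genes of the isoprenoid precursors and -0.41 for the 10 genes of the sterol ring. SCD, which had the largest difference between the groups after INSIG2, differed by -0.10 between the numbers (adjusted p = 0.516 from limma), and FADS1 by 0.05. The difference between these roles was not tested. The other fatty acid genes were ACACA (-0.22), ELOVL6 (-0.18), FADS2 (-0.09) and ACLY (-0.02). SREBF2 and SREBF1, the genes of the transcription factors, had differences of -0.25 and -0.14, with adjusted limma p-values of 0.0999 and 0.259. STARD4, at 4.86 and 4.27 RPKM in number 1 and at 3.50 and 2.94 RPKM in number 2, differed by -0.40 with an adjusted limma p-value of 0.0549.

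**Figure D3:**
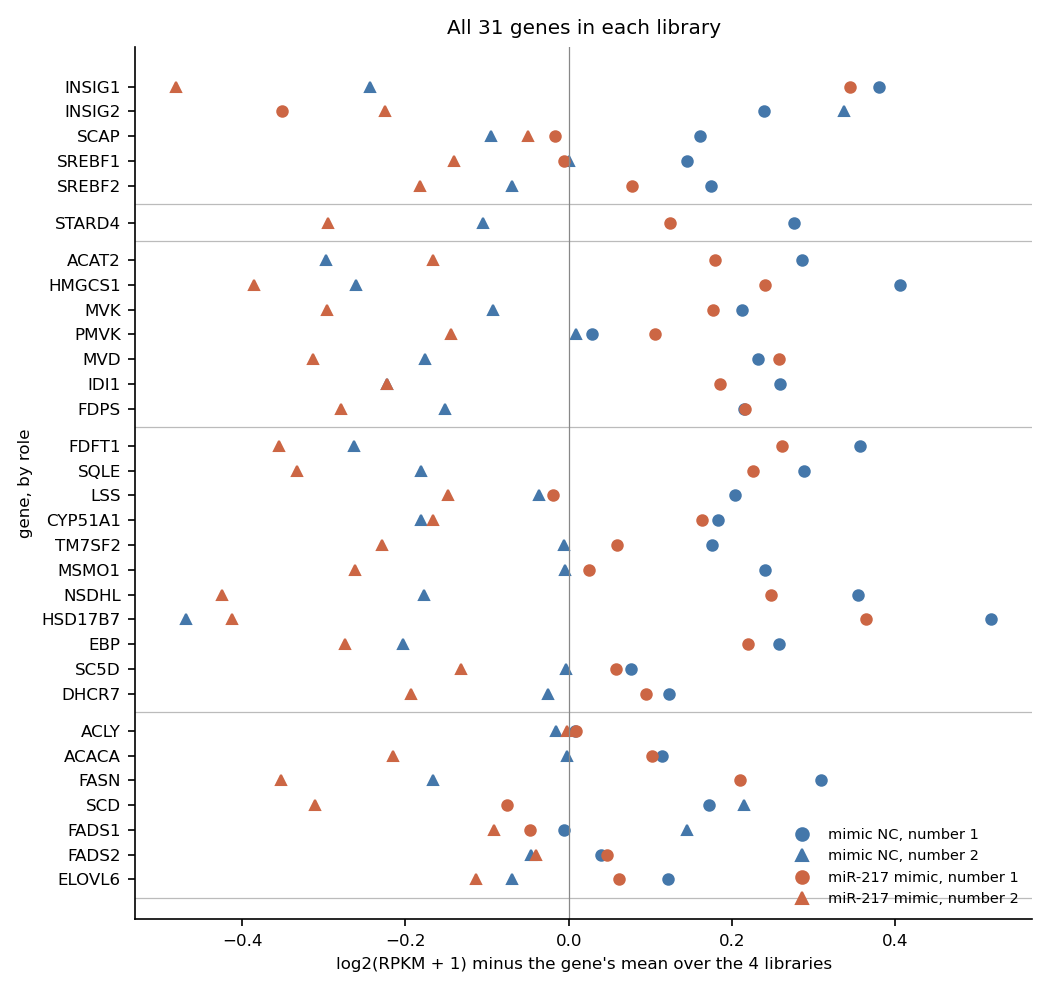
Horizontal axis, log2(RPKM + 1) of each gene minus its mean over the 4 libraries, with genes ordered by role from SREBP control (top) through the sterol carrier, isoprenoid precursors and sterol ring to fatty acid genes (bottom). Circles (number 1) lie to the right of triangles (number 2) for most sterol genes. INSIG2, which was selected on this difference, and SREBF1, SCD and FADS1 separate by colour (group). Of all tested genes 13.5% were separated in this direction.

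**Figure D4:**
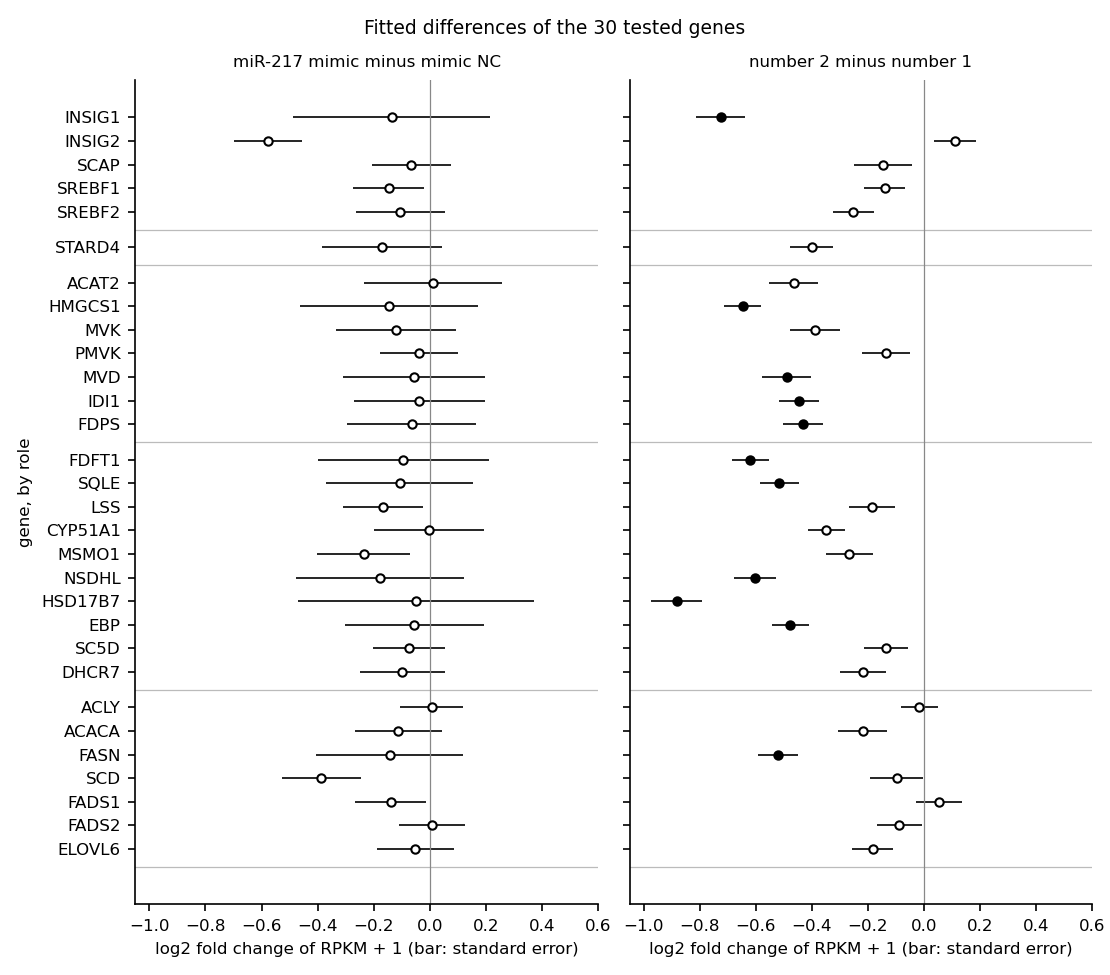
Fitted log2 differences of the 30 tested genes with standard errors as bars, for miR-217 mimic minus mimic NC (left) and number 2 minus number 1 (right). INSIG2 was selected on the comparison on the left, so its point there is descriptive and is not a test. Filled points are the 11 genes with an adjusted limma p under 0.05, all on the right, and the bars on the left are wider because that fit has no term for the number.

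Other measures also differed between the numbers. Reads on genes summed to 57933183 and 53356283 in number 1 and to 47374957 and 32635814 in number 2. Mitochondrial genes took 3.56% and 3.58% of the reads in number 1, and 3.98% and 4.78% in number 2. Of the 10 listed markers of the line and of other breast cell types, 6 were lower in both libraries numbered 2, 1 was higher and 3 overlapped. Of all tested genes 35.5% were lower and 26.9% higher in this way. MSN, a mesenchymal marker, was at 156.7 and 154.1 RPKM in number 1 and at 93.5 and 104.04 RPKM in number 2. CAV1, another mesenchymal marker, was at 7.92 and 7.75 RPKM in number 1 and at 5.17 and 5.35 RPKM in number 2. CD44 was at 13.5 and 14.6 RPKM in number 1 and at 17.3 and 26.0 RPKM in number 2, and VIM overlapped. In a principal component analysis, the component with most variance (71.3%) separated number 1 from number 2. Scores on it were -19.7 (mimic NC) and -17.3 (miR-217 mimic) in number 1, and 12.2 (mimic NC) and 24.8 (miR-217 mimic) in number 2. The 2 libraries numbered 2 thus lay further apart on it than those numbered 1. The part of this in the differences with the mimic within number 2 was not tested. The part of depth, of these shares and of the markers in the differences was not tested, and what distinguishes the numbers cannot be told from the labels.

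Promoters were read from RefSeq windows (GRCh38.p14) from 250 bases before to 50 bases after the start site, which were found for 27 of the 31 members and for 8 of the 11 that fell in number 2. The letters TCACNCCAC, a core of the sterol regulatory element where SREBP binds, were searched on both strands. They were found in the window of 1 of the 27 members (3.7%), SREBF2, and in 1.17% of the windows of 8350 tested genes. Only this form was searched and only in these windows, so a member without these letters may still have such an element. CCAAT, the core of the site of NF-Y, a factor that often acts with SREBP, was found on either strand in 17 of the 27 (63.0%), compared with 37.5% of the windows of tested genes. Among the members that fell in number 2 and had a window, it was in 7 of 8, and among the other members in 10 of 19. The E-box CACGTG was in 4 of 27, compared with 10.6%. None of the motifs contains another, and a match describes the letters only. The SREBF2 element at chr22:41832972-41832980 begins 133 bases before the start site. It is shown with CCAAT letters (ATTGG on the gene's strand) of the 3 genes with the largest differences between the numbers, 170 bases before the start of INSIG1 (chr7:155297708-155297712), 100 bases before that of HMGCS1 (chr5:43313508-43313512, minus strand) and 52 bases before that of HSD17B7 (chr1:162790650-162790654), with motifs in capitals.
SREBF2: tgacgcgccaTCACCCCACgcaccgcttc
INSIG1: cgccggcctcccATTGGttgcggccgcct
HMGCS1: ctaccggccgcgATTGGctgtgggagcca
HSD17B7: tggcggactgagATTGGagggatcagctc

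A wider list of 42 other genes of SREBP processing, sterol transport, isoprenoid use and lipid synthesis was examined in the same way. CH25H was not listed in the table, and 35 of the 41 found were tested. With miR-217 mimic 0 of the 35 had an unadjusted limma p under 0.05, compared with 1.19% of all tested genes, and the median log2 fold change was -0.039. Both miR-217 mimic libraries were below both mimic NC libraries for 4 of the 35 (11.4%) and above them for 2 (5.71%), near the 13.5% and 9.72% of all tested genes. Between the numbers 0 of the 35 fell at an adjusted limma p under 0.05, compared with 4.69% of all tested genes. At an unadjusted limma p under 0.05, 5 of the 35 (14.3%) were lower and 4 (11.4%) higher, compared with 19.6% and 13.8% of all tested genes. At the adjusted threshold 1 of the 35 (2.86%) rose, compared with 3.69% of all tested genes. This was NPC1, which exports cholesterol from lysosomes. NPC1 was at 3.18 and 3.08 RPKM in number 1 and at 4.65 and 5.07 RPKM in number 2, a log2 difference of 0.50 (standard error 0.083, adjusted p = 0.0453 from limma), a call that was lost without the filter on low levels. The median of the wider list between the numbers was -0.066.

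Some levels are uncertain because exons are shared with other genes of the table. Of the exon bases of CYP51A1, 88.9% are shared, mostly with LRRD1 on the same strand, and of those of ACAT2, 52.3% are shared with SOD2 and TCP1 on the other strand. Among the 11 genes that fell in number 2, IDI1, FDPS and HMGCS1 share 17.9%, 18.6% and 14.95% of their exon bases with antisense genes. Reads of the tested members ranged from 168 to 33060 in a library.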

How the data were processed

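RNA-seq values of 2 mimic NC and 2 miR-217 mimic libraries of MDA-MB-231 cells were used, grouped and numbered by the sample titles. The authors deposited RPKM values of 32955 genes with exon coordinates and summed exon length. The submitters' processing notes name Trimmomatic 0.36, featureCounts, Subread 1.5.1, edgeR 3.12.1 and hg38. The aligner is not given in the sources used here. All nonzero RPKM values were whole multiples of 1 read (tolerance 0.02 reads), and reads were recovered from them. The totals were 57933183 and 47374957 reads for mimic NC, and 53356283 and 32635814 for miR-217 mimic.

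Differences were tested on log2(RPKM + 1) with limma 3.58.1 in R 4.3.3 (two-sided, variance trend) over the 13871 genes whose mean RPKM reached 1, without a replicate term for the mimic and with group and number for the numbers, and p-values were adjusted by Benjamini-Hochberg over all of them. The fits were also run on simulated data with a changed fold of 2. The outcome is not given here, and no result rests on it. Alternatives were a pseudocount of 0.1, other filters (none, or a mean of at least 5), median centring, limma-voom on recovered reads scaled to total reads (added after seeing the data), a replicate block, and leaving out each library. A TMM-scaled voom fit and a quasi-likelihood count test on the recovered reads were planned and run once, and were then left out because count-model tools were restricted here to deposited counts or per-million values. The voom fit kept scales to total reads only. Sites were read from GENCODE 29 and RefSeq tables. All members are named, as are genes of the wider list with an unadjusted p under 0.05 for the mimic or an adjusted p under 0.05 between the numbers. The members, lists and rule were chosen with earlier results of these data known. Plots were made with matplotlib 3.10.9.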

Additional observations from a re-analysis of the deposited data

How the results depend on the processing

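With the mimic, 1 member other than INSIG2 (SCD) was lower with an unadjusted limma p under 0.05, compared with 0.707% of all tested genes. This count was 0 with median centring (0.57% of all tested genes) and 2 (SCD and MSMO1) with the replicate block (4.84%). With the replicate block on voom reads the count was 3 (with LSS), compared with 5.95% of all tested genes. At an adjusted p under 0.05 the count was 0 in every alternative run, whereas the threshold used for the other counts with the mimic is the unadjusted p. The samples share only a number, so the block is an alternative. Deviations from the group means correlated at 0.68 between samples of the same number, and the block raised the genes with an unadjusted p under 0.05 from 165 to 1046. The median of the 30 members, INSIG2 included, of -0.101 ranged from -0.287 to 0.0691 with a library left out. In the wider list, the count lower with the mimic at that threshold was 0 (0.707% of all tested genes). It was 2 of 35 with the replicate block (4.84% of all tested genes) and 6 with the replicate block on voom reads (5.95%). The median of the wider list, -0.0393, was -0.051 at a mean RPKM of at least 5 and -0.0132 with median centring. With a library left out this median ranged from -0.0684 to -0.0208. Between the numbers, the 11 members called (4.69% of all tested genes) became 0 without a filter (0.00607%), 10 at a pseudocount of 0.1 (4.31%), 12 of 20 at a mean of at least 5 (11.8%), 12 with median centring (5.4%), 13 without the group term (3.71%) and 16 with voom (13.5%). The median over all tested members, called or not, was -0.307. It was -0.363 at a pseudocount of 0.1, -0.266 without a filter, -0.438 at a mean of at least 5 and -0.367 with voom. In the wider list, 0 lower genes became 1 at a mean of at least 5 (11.8% of all tested genes) and 4 with voom (13.5%), and 1 higher gene (3.69%) became 0 without a filter (0.00303%), 2 with median centring (5.62%) and 3 with voom (10.1%). The 8-base seed match was found in 0 members instead of 2. The cause of these changes was not tested. Leaving out a library leaves no test between the numbers. The voom fits were chosen after seeing the data, and the planned TMM scaling and count test were left out.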
